A study of Mus musculus with 8 samples.

Results

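In E14.5 mouse forebrains, 14 transcripts were lower without Elp3 in both ribosome footprints and mRNA, each by at least 1.4-fold between the closest WT and Elp3cKO libraries. They were chosen from 6585 eligible transcripts, out of 14801 listed in both the footprint and the mRNA table. A transcript was eligible if its mean level over the 4 libraries of each assay was at least 20 CPM (the count divided by the library total, times 1000000) and the log2 ratio of mean footprint to mean mRNA CPM lay between -2 and 2. A member also needed, in each assay, a lowest WT CPM at least 1.4 times the highest Elp3cKO CPM. Both genotype contrasts therefore chose the 14, and the size and direction of their reductions are given as a description. The tables pair no transcript ID with a gene name, so the 14 are numbered from 1 (largest mean log2 reduction over both assays) to 14, and 2 are given by ID: uc007bas.1 (transcript 1) and uc009pap.1 (transcript 13, the one with the most reads among the others).

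The libraries came from frozen forebrain tissue of WT embryos and of embryos labelled Elp3cKO, in which Elp3 is conditionally deleted in cortical progenitors. All embryos were at stage E14.5 and no treatment is named. Neither the Cre driver nor the allele is given in the sources used here. Each of the 4 groups (WT and Elp3cKO, footprints and mRNA) held 2 libraries. Whether the 2 came from separate embryos is not in the labels, so a p-value reflects library-to-library variation that could be technical alone. Forebrain is a mixture of progenitors, neurons and other cells, and in such bulk tissue fewer cells of a type and less RNA per cell cannot be told apart. The identity of the tissue and the loss of Elp3 were not examined, for lack of gene names.

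Elongator, whose catalytic subunit is Elp3, modifies the wobble uridine of certain tRNAs and so influences how fast ribosomes read the matching codons. A ribosome footprint is the piece of mRNA that a translating ribosome shields from RNase, and the number of footprints on a transcript depends on how much of its mRNA is present and on how many ribosomes each copy carries. Footprints divided by mRNA, called translational efficiency, separate these quantities: a transcript that loses mRNA alone loses footprints in proportion and keeps its efficiency. The question put to the 14 transcripts was whether their footprints were lowered more than, less than or as much as their mRNA.

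Footprint libraries held 4119478 to 10082980 counts and mRNA libraries 2059059 to 4823834. The members were well covered in footprints, with 63 to 2763 counts per library, while in mRNA the lowest count was 24, in Elp3cKO replicate 1, the shallowest library. Intervals on counts cover counting error only and leave out the variation between libraries. They are too narrow if PCR copies were counted, because such copies are not independent molecules. Both footprint libraries numbered 2 had more IDs at a count of 0 (3082 in WT and 3005 in Elp3cKO) than those numbered 1 (2256 and 2062), although WT replicate 2 had the highest total. WT footprint replicate 2 moved with the members: 11 of the 14 had a higher CPM in it than in WT footprint replicate 1, against 50.3% of the eligible transcripts, with a median log2 ratio of replicate 2 to replicate 1 of 0.30. In the Elp3cKO mRNA libraries 3 of the 14 were higher in replicate 2 than in replicate 1 (51.4% of eligible transcripts), with a median log2 ratio of -0.24. Their part in the choice of members was not tested.

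Of the eligible transcripts, 1.23% met the 1.4-fold limit as lowered in footprints (81) and 0.699% as lowered in mRNA (46). The 14 that met both, 0.213% of the eligible, made up 17.3% of the first list and 30.4% of the second. The opposite set, raised by the same limit in both assays, held 27 transcripts (0.41%). None was lowered in one assay and raised in the other (0 and 0 of 6585). The limit cut through a continuum. The member nearest to it had a ratio of lowest WT to highest Elp3cKO CPM of 1.406 in its closer assay, and the nearest eligible non-member one of 1.399. In 22 eligible transcripts this ratio was from 1.3 to under 1.4. A further 48 transcripts met the fold limit in both assays but had under 20 CPM in at least 1 of them. Without WT footprint replicate 2 the rule gave 14 transcripts, 13 of them members. It gave 28 without WT footprint replicate 1, 26 without Elp3cKO footprint replicate 2, 29 without WT mRNA replicate 2 and 33 without Elp3cKO mRNA replicate 1. Removing a library also removes a condition to be met. Members could be lost as well: 13 of the 14 remained without WT mRNA replicate 2. Without WT mRNA replicate 1 the rule gave 18 transcripts, 12 of them members.

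The reductions were mostly close to 2-fold and similar in size in the 2 assays. Elp3cKO forebrains kept a median of 52.8% of the WT footprint CPM (range 23.7% to 63.9%) and 51.9% of the WT mRNA CPM (36.1% to 61.1%). On the log2 scale the median difference between Elp3cKO and WT was -0.92 for footprints and -0.95 for mRNA, beside 0.00 and 0.02 over all eligible transcripts. The mean level was more than 2-fold lower in footprints for 6 members, in mRNA for 5 and in both for 4.

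**Figure D1:**
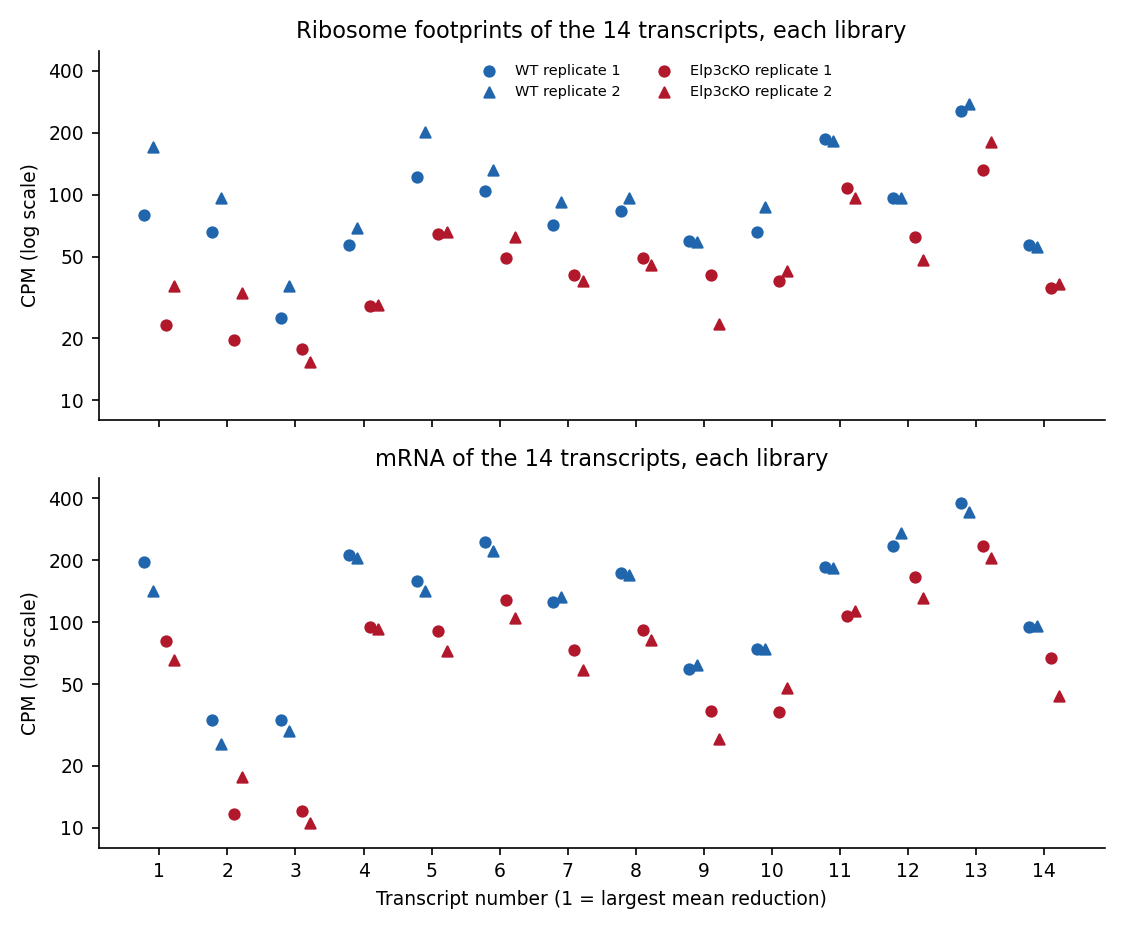
CPM (log scale) of each of the 14 transcripts in every library, footprints above and mRNA below, with WT in blue, Elp3cKO in red, circles for replicate 1 and triangles for replicate 2. Both WT points lie above both Elp3cKO points for every transcript in both panels, as the rule requires, and the 2 WT footprint libraries stand farthest apart for transcript 1 (79.5 and 170 CPM).

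Transcript 1, uc007bas.1, had the largest footprint reduction. Its footprints were at 79.5 and 170 CPM in WT replicates 1 and 2 and at 23.1 and 35.9 CPM in Elp3cKO. Its mRNA was at 196 and 142 CPM in WT and at 80.6 and 65.5 CPM in Elp3cKO. Both assays separated the genotypes, but the WT footprint libraries differed from each other by 1.09 on the log2 scale, more than in any other member. The means were 125 ± 63.7 and 29.5 ± 9.05 CPM for footprints and 169 ± 37.9 and 73.1 ± 10.7 CPM for mRNA (SD, n = 2). The log2 differences were -2.08 and -1.21, so that 23.7% of the footprints and 43.3% of the mRNA remained.

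Transcript 2 had the highest efficiency of the 14. It was the least abundant in mRNA of WT forebrain, with 33.3 and 25.7 CPM in WT and 11.7 and 17.6 CPM in Elp3cKO, but its footprints were at 65.7 and 95.8 CPM in WT and at 19.7 and 33.3 CPM in Elp3cKO. Its replicates varied in both genotypes, and its lowest WT mRNA value was 1.46 times the highest Elp3cKO value, near the limit. In mRNA it met the level limit of 20 CPM through its WT values, since its Elp3cKO mean was 14.6 CPM. The log2 difference was -1.61 in footprints and -1.01 in mRNA.

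Transcript 3 departed in the other direction, with more mRNA than footprints lost. Its mRNA was at 33.3 and 29.7 CPM in WT and at 12.1 and 10.6 CPM in Elp3cKO, a log2 difference of -1.47. It met the level limit through its WT values, since its Elp3cKO means were under 20 CPM in both assays. Its footprints were at 25.3 and 36.0 CPM in WT and at 17.7 and 15.3 CPM in Elp3cKO, a log2 difference of -0.89. The mRNA libraries of each genotype lay close together and far from the other genotype, while the footprint libraries nearly met, with a lowest WT value 1.43 times the highest Elp3cKO value.

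Transcript 5 resembled transcript 1 in having an uneven WT pair. Footprints were at 122 and 202 CPM in WT and at 64.6 and 65.8 CPM in Elp3cKO (log2 difference -1.32), and mRNA was at 158 and 142 CPM in WT and at 90.8 and 72.6 CPM in Elp3cKO (-0.88). The Elp3cKO footprint libraries were nearly equal, so the spread of the reduction came from the WT side.

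In the other 10 members the reductions of the 2 assays lay within 0.13 of each other on the log2 scale. Transcript 4 showed this with close mRNA replicates: its mRNA was at 211 and 204 CPM in WT and at 94.2 and 93.1 CPM in Elp3cKO, and its footprints were at 57.1 and 68.7 CPM in WT and at 28.8 and 29.1 CPM in Elp3cKO. The log2 differences were -1.15 and -1.12. Transcript 13, uc009pap.1, the most abundant member, had footprints at 256 and 274 CPM in WT and at 131 and 180 CPM in Elp3cKO, and mRNA at 379 and 342 CPM in WT and at 235 and 205 CPM in Elp3cKO. Its log2 differences were -0.77 and -0.71, among the smallest of the 14, and its Elp3cKO footprint libraries differed more than its WT ones.

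Transcript 11 was nearly as abundant in footprints as in mRNA and had even replicates throughout. Its footprints were at 187 and 182 CPM in WT and at 107 and 96.4 CPM in Elp3cKO, and its mRNA at 186 and 183 CPM in WT and at 107 and 114 CPM in Elp3cKO. Transcript 12 had the second highest mRNA level, at 234 and 272 CPM in WT and at 166 and 131 CPM in Elp3cKO, with footprints at 96.0 and 96.1 CPM in WT and at 62.4 and 47.8 CPM in Elp3cKO. Here the WT footprint libraries were nearly equal and the spread lay in Elp3cKO. Transcript 9 had the widest Elp3cKO footprint pair on the log scale, at 40.8 and 23.5 CPM, against 59.8 and 58.8 CPM in WT. Its mRNA was at 59.3 and 61.7 CPM in WT and at 36.9 and 27.2 CPM in Elp3cKO, so that replicate 2 was the lower Elp3cKO library in both assays.

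Transcripts 6, 7, 8 and 10 repeated the near-equal reduction. Their footprint log2 differences were -1.08, -1.04, -0.93 and -0.92 and their mRNA log2 differences -1.0, -0.97, -0.99 and -0.81. All 4 had a higher WT footprint value in replicate 2 than in replicate 1. Transcript 14, with the smallest mean reduction, had footprints at 57.0 and 55.8 CPM in WT and at 35.2 and 36.9 CPM in Elp3cKO, and mRNA at 94.2 and 95.7 CPM in WT and at 67.0 and 43.7 CPM in Elp3cKO. Its mRNA reduction depended on which Elp3cKO library was read, while its footprints were even within each genotype.

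The genotype tests over all transcripts were fitted with edgeR's quasi-likelihood method and adjusted by Benjamini-Hochberg over each whole table. They use the contrasts that chose the members, so nothing is read from the number called. Footprints of 10 of the 14 members fell at an adjusted p under 0.05, where 0.544% of all 12691 transcripts tested were called lower. For mRNA it was 13 of 14, where 1.01% of 11697 were called lower. In both assays 9 members were called lower, where 0.41% of the 6585 eligible transcripts (27) were. Transcripts 3, 9, 12 and 14 were not called in footprints (edgeR adjusted p = 0.237, 0.144, 0.0585 and 0.203), and transcript 2 was not called in mRNA (edgeR adjusted p = 0.0658). A further 18 eligible transcripts were called lower in both assays but did not meet the 1.4-fold limit between the closest libraries. The footprint calls depended on single libraries: leaving 1 out raised or lowered the number called, among the members and over the whole table. Such a fit leaves 1 library in a group, so nothing is read from its counts. The members' median footprint log2 difference ran from -1.115 to -0.862 over these omissions. For a single transcript, an exact two-sided permutation test of 2 against 2 libraries cannot go below p = 0.333, so none was run.

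The footprint reduction was larger than the mRNA reduction in 9 members and smaller in 5, with a median difference (footprint minus mRNA log2 value) of -0.06. Over all eligible transcripts the median was -0.03, and 54.2% had the lower value in footprints. Among the 1989 eligible transcripts with lower means in both assays the share was 60.7%, beside the members' count of 9 of 14. The difference was -0.87, -0.60 and -0.44 in transcripts 1, 2 and 5 and 0.58 in transcript 3, and between -0.12 and 0.13 in the other 10. Differences over 0.4 in either direction, as in these 4, occurred in 17.3% of the eligible transcripts. Neither the count nor the sign of the median held when single libraries were left out: without WT footprint replicate 2 they were 6 of 14 and 0.063, and without Elp3cKO mRNA replicate 1 they were 5 of 14 and 0.059. Transcripts 6, 7 and 10 changed sign without WT footprint replicate 2, to 0.10, 0.13 and 0.10.

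**Figure D2:**
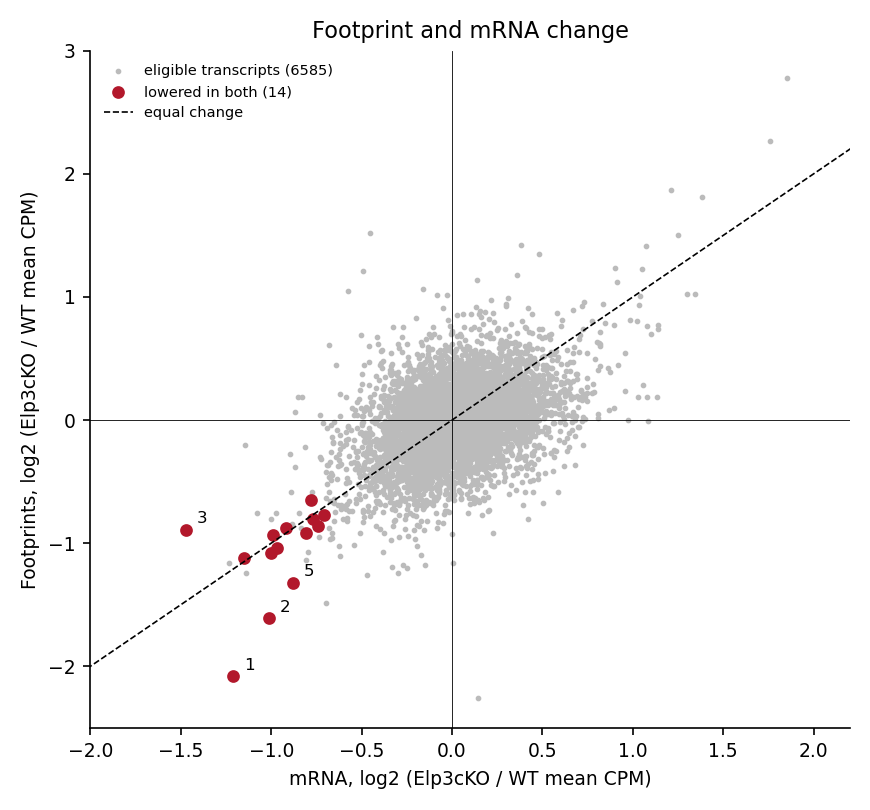
Log2 ratio of mean Elp3cKO to mean WT CPM in mRNA (x axis) and footprints (y axis) for the 6585 eligible transcripts (grey) and the 14 members (red), with the line of equal change. The members lie along the line except for transcripts 1, 2 and 5 below it and transcript 3 above it.

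These 4 departures were larger than counting error, if each count is an independent molecule, but mostly not larger than the spread between libraries. Pooling the counts of both libraries, the Elp3cKO to WT ratio of transcript 1 was 0.216 for footprints (exact 95% interval 0.192 to 0.242) and 0.403 for mRNA (0.362 to 0.448). For transcript 2 the ratios were 0.296 (0.261 to 0.335) and 0.525 (0.414 to 0.664), for transcript 5 they were 0.396 (0.366 to 0.427) and 0.514 (0.463 to 0.570), and for transcript 3 they were 0.547 (0.465 to 0.641) and 0.347 (0.264 to 0.452). In these 4 the intervals of the assays did not overlap, and in the other 10 they did. The intervals were likewise apart in 27.2% of the eligible transcripts, so 4 of 14 is near the background. The spread between libraries was wider. Each assay allows 4 pairings of a WT with an Elp3cKO library, which share libraries and are not independent. For transcript 1 the log2 ratios of these pairings ran from -2.87 to -1.15 in footprints and from -1.58 to -0.82 in mRNA, so the ranges overlapped. They overlapped in 13 of the 14 members. The exception was transcript 3, whose mRNA ratios, from -1.65 to -1.29, all lay below its footprint ratios, from -1.24 to -0.52. Such a separation occurred in 7.9% of the eligible transcripts, and the reverse one, met by 0 members, in 11.3%.

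**Figure D3:**
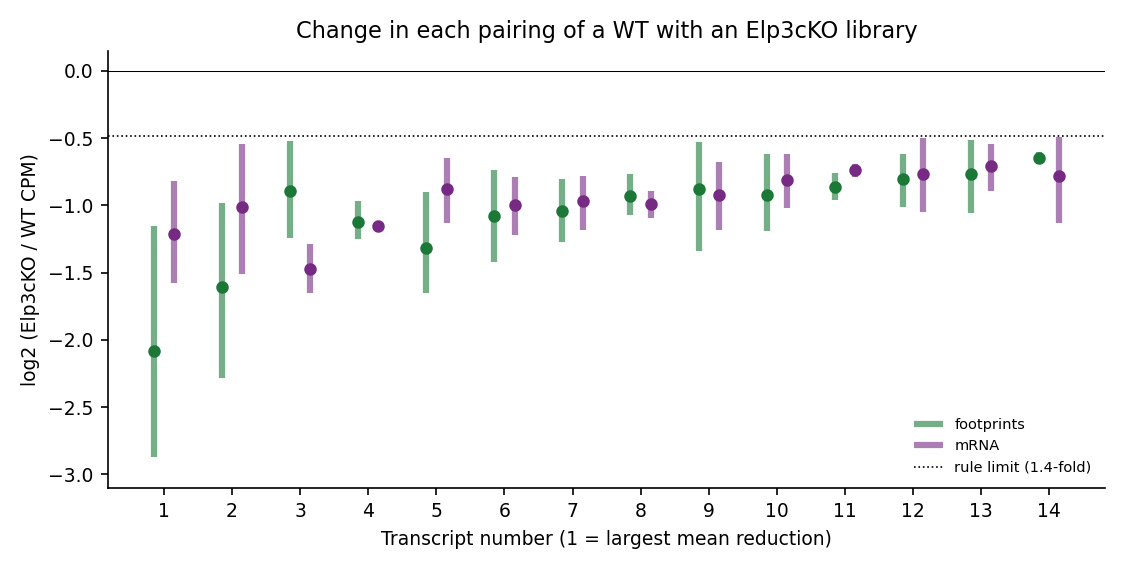
Log2 ratio of Elp3cKO to WT CPM for each member, with dots for the ratio of the means and bars for the range over the 4 pairings of a WT with an Elp3cKO library (green for footprints, purple for mRNA). The bars of the 2 assays overlap for every member but transcript 3, and all lie below the dotted line, the 1.4-fold limit of the rule.

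The interaction of genotype and assay, fitted with edgeR over all 8 libraries and 11588 transcripts, called 0 of the 14 members (lowest edgeR adjusted p = 0.925), where 0.0173% of all transcripts were called lower. The rule bounds the change in both assays, so this count describes the members only. At an unadjusted p under 0.05, edgeR had 1 member, transcript 1, where 5.29% of all transcripts had such a p in either direction, and DESeq2 and limma voom had 0 and called 0 after adjustment. The efficiency of transcript 1 had a log2 difference of -0.87 (SE 0.38, edgeR unadjusted p = 0.0299, adjusted p = 0.925), lower in Elp3cKO. For transcripts 2, 5 and 3 the values were -0.67 (SE 0.40), -0.41 (SE 0.27) and 0.61 (SE 0.42). In the other 10 the SE was between 0.18 and 0.34. Even the change of transcript 1, -0.87 with an SE of 0.38, was not called after adjustment. Changes of efficiency well above 1 SE could therefore go undetected in these libraries.

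The departures of transcripts 1 and 5 moved with WT footprint replicate 2. Without that library the footprint minus mRNA difference was -0.22 for transcript 1 and -0.03 for transcript 5. Without WT footprint replicate 1, the difference of transcript 1 was -1.31, and its edgeR log2 difference in efficiency was -1.32. The difference of transcript 2 was -0.30 without WT footprint replicate 2, -1.03 without Elp3cKO footprint replicate 2 and -0.27 without Elp3cKO footprint replicate 1. Transcripts 1, 2, 3 and 5 all kept the direction of their difference in each of the 8 omissions of 1 library. The values ran from -1.31 to -0.22 for transcript 1, -1.03 to -0.27 for transcript 2 and -0.75 to -0.03 for transcript 5. That of transcript 3 ran from 0.34 to 0.86. Its counts were among the lowest of the members, with 25 and 51 mRNA counts in Elp3cKO.

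Baseline efficiency in WT forebrain was spread over a wide range and lay mostly on the low side. It is given as the log2 ratio of mean WT footprint CPM to mean WT mRNA CPM. Each assay is scaled to its own total, so 0 marks a transcript with an equal share of both. The counted part of each transcript is not stated, so efficiencies of different transcripts may also differ for that reason. The median of the members was -0.44 (a ratio of 0.736), beside 0.00 over the eligible transcripts, whose middle 50% lay between -0.61 and 0.59. Of the 14 members, 11 were below the eligible median, 6 of them below that middle range, and 1 was above the range. The 27 transcripts raised in both assays had a median of 0.62. No test was made of these differences. Leaving out 1 library moved the members' median between -0.62 (without WT footprint replicate 2) and -0.22 (without WT footprint replicate 1).

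The lowest efficiency was that of transcript 4, with a WT ratio of 0.303, above 1.76% of the eligible transcripts. Transcripts 12, 6 and 8 followed with ratios of 0.380, 0.504 and 0.523. For transcript 6 the values from pairing each WT footprint with each WT mRNA library ran from -1.24 to -0.75 on the log2 scale, and those of transcript 8 from -1.06 to -0.82, so these neighbours in the order did not differ beyond their spread. Transcript 4, from -1.89 to -1.57, lay below all of them. Transcripts 3, 5, 9, 10 and 11 had ratios between 0.973 and 1.08. Transcript 2 stood alone at the top with 2.74, above 95.7% of the eligible transcripts. In mRNA the median WT level of the members was 160 CPM beside 70.8 CPM for the eligible, and transcripts 2, 3 and 9 were below the eligible median. In footprints the medians were 85.6 and 69.4 CPM.

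Without Elp3 the efficiencies covered a similar range. The median efficiency was -0.56 in Elp3cKO forebrain, from -1.69 in transcript 4 to 0.85 in transcript 2. Transcript 1 went from a ratio of 0.737 in WT to 0.404 in Elp3cKO, and transcript 3 from 0.973 to 1.45. Across the 14 members, footprint and mRNA log2 differences were correlated with r = 0.44 (Pearson) and rho = 0.71 (Spearman), and r = 0.29 and rho = 0.69 without transcript 1. The rule removes small reductions in either assay, and the members share their 8 libraries, so these values are a description. WT efficiency and the footprint minus mRNA difference had r = -0.35 and rho = -0.51, which share the WT values by construction, r = -0.46 and rho = -0.57 without transcript 1, and r = -0.06 without the 2 members farthest from the median efficiency.

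**Figure D4:**
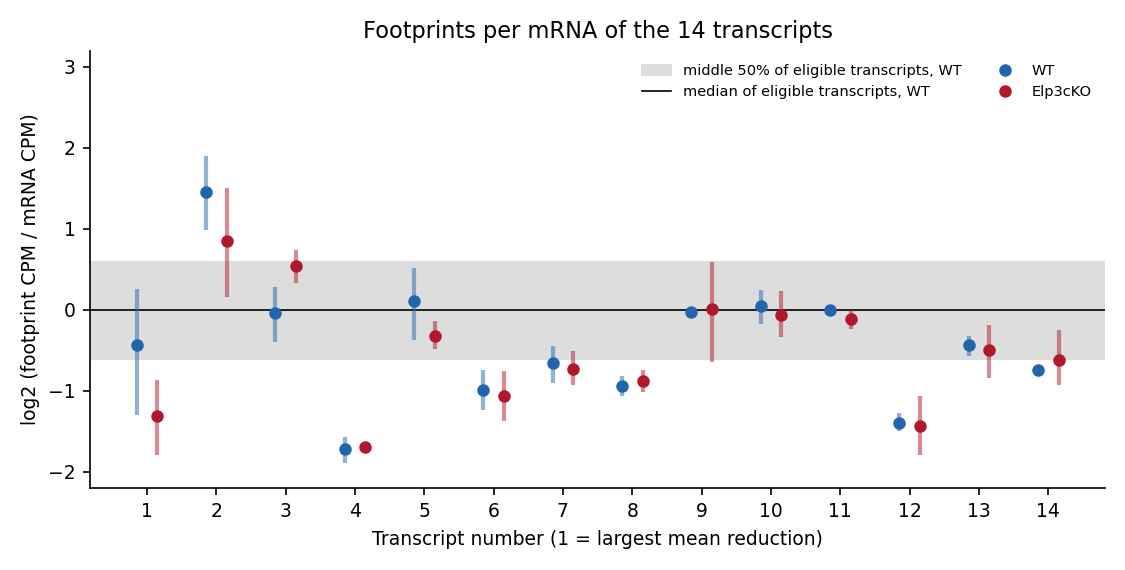
Log2 ratio of footprint to mRNA CPM of each member in WT (blue) and Elp3cKO (red), with dots for the ratio of the means and bars for the range over the 4 pairings of a footprint with an mRNA library; the grey band and line give the middle 50% and the median of the eligible transcripts in WT. Most members lie below the median line, transcript 2 lies above the band, and the bars of the genotypes are apart for transcript 3 alone, which restates the separation of its footprint and mRNA ratios.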

How the data were processed

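Per the file headers, each assay has 1 deposited table of unnormalized counts, with 1 row for each UCSC known gene ID. Per the labels' protocols, footprint libraries came from RNase-protected fragments of 28 to 32 nt in monosome fractions, and mRNA libraries from polyA-selected RNA. CASAVA 1.8, Bowtie 1.0.0 and mm10 are named in the submitters' processing notes. How reads were assigned to transcripts, whether strand was used and whether PCR copies were removed is not given in the sources used here, so reads shared between overlapping or similar genes are uncertain for every transcript. Of 16365 IDs, 0 matched the gene name tables, so names, positions, sequences and gene lists are not used here.

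The members and tests were chosen with earlier results of these data known. CPM were taken from column totals. Tests used R 4.3.3 and edgeR 4.0.16 (filterByExpr with minimum count 10, TMM scaling within each assay, quasi-likelihood test, Benjamini-Hochberg adjustment). DESeq2 1.42.0, limma 3.58.1, other scalings and filters, a replicate block and the omission of each library were alternatives. The main edgeR fits for footprints, mRNA and efficiency were run on simulated data to check that known changes were recovered, and the alternatives were not. The simulation gave every transcript the same spread between libraries. It therefore does not show error rates or power at the spread of the real libraries. SE are the log2 difference over the root of F. IDs printed are the member with the largest mean reduction and, of the rest, the one with the most reads. The limit that a count of 0 allows (3 counts) was 0.298 to 0.728 CPM in footprint and 0.622 to 1.46 CPM in mRNA libraries.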

Additional observations from a re-analysis of the deposited data

How the results depend on the processing

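The rule gave 14 transcripts, and 79 with a fold limit of 1.2, 0 with a limit of 2, 26 with a minimum of 10 CPM and 9 with a minimum of 50 CPM. It gave 17 with TMM and 18 with DESeq2 scaling, each including all 14, and the same 14 without the efficiency limits. Leaving out 1 library gave 14 to 33 transcripts, 1 to 13 of the 14 members called in footprints, 10 to 14 in mRNA and 0 to 1 in efficiency. It gave median log2 differences of -1.115 to -0.862 for footprints and -1.094 to -0.845 for mRNA, a median footprint minus mRNA difference of -0.16 to 0.063, a median WT efficiency of -0.616 to -0.219, and 5 to 11 members with the larger reduction in footprints. In a test, a group reduced to 1 library borrows its spread from the other groups, so calls of single members in such fits are not listed. In these fits the number of members called in footprints rose and fell with the number called lower over the whole table. The range of footprint calls therefore describes the fits and is not a result about the members. Nothing is read from the ranges of calls in mRNA and efficiency. The other alternatives for these results kept counts within 1.5 times the reported ones and medians within the spread of replicates.

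Replicate numbers were not treated as pairs, as the labels do not say that they are. Across the transcripts that passed the filter, the difference of replicate 1 from replicate 2 correlated between WT and Elp3cKO with r = 0.055 in footprints and 0.018 in mRNA. Whether libraries of the same number shared a batch was not tested. With the replicate block, 12, 14 and 0 members were called in footprints, mRNA and efficiency. Over all transcripts the block called 193 lower in footprints and 210 in mRNA, against 69 and 118 without it. The DESeq2 Wald test called 134 and 86, the fits without a filter 198 and 172, and the fit on all 8 libraries 143 and 30. limma voom called 179 lower in mRNA. The causes were not tested.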

Other observations

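Transcripts that met the 1.4-fold limit in 1 assay alone mostly had lower means in the other assay too. Of the 67 eligible transcripts lowered by that limit in footprints only, 60 had a lower mean in Elp3cKO mRNA, with a median log2 difference of -0.33 in mRNA and -0.81 in footprints. Of the 32 lowered in mRNA only, 29 had lower footprints, with medians of -0.40 in footprints and -0.72 in mRNA. Their median WT efficiencies were 0.04 and -0.01, beside -0.44 for the 14 lowered in both.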
